A study of Mus musculus with 102 samples.

Results

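The step from 20 to 26 months of age was followed in the brain of male BL6J mice labelled WT, with 5 animals at 26 months and 7 at 20 months. These are the 12 oldest of 45 brain libraries of 6 ages, in a series of 102 samples that also holds spleens. The libraries were chosen by their labels alone, as all brains of both ages. The genes were those with a normalised read count of 10 or more in at least 5 brain libraries, which 15566 of 51810 listed genes reached. Strain, sex and genotype were shared by every group, the labels name no treatment, and each title carries an animal code of its own. The labels give brain without a region or hemisphere, and the ET codes in the titles are not explained and were not used. The comparison asks which transcripts differ between the oldest animals and those next in age, and whether that step differs from the equally long step from 14 (9 animals) to 20 months. The remaining ages, 3, 5 and 8 months, entered the estimate of the spread.

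The ageing brain is known for glia that take on reactive states. Microglia, its resident macrophages, lower some of the genes of their resting state and raise genes for lipid handling, phagocytosis and antigen presentation, among them Clec7a, Itgax and Gpnmb. Astrocytes raise Serpina3n and C4b, complement tags synapses and debris for removal, and interferon-response genes tend to be more active. Nuclear-encoded genes of the respiratory chain and of the ribosome belong to the processes often described as lower in old tissue.

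Reads in genes ran from 6118328 to 9682731 per library at 20 months and from 4594090 to 13655235 at 26 months, so that 1 read was worth 0.524 to 1.60 units of normalised count. None of the 12 libraries resembled another within read sampling noise. The neuronal genes Snap25 and Rbfox3, the oligodendrocyte gene Mbp and the astrocyte gene Aqp4 were abundant in every library, while Gfap was listed at 0 in all 12. Replicate 3 at 26 months stood apart. Along the first principal component, which held 30.1% of the variance, it lay at 29.5, the other 26-month brains lay between -5.25 and 3.66, and replicate 1 at 20 months lay at the other end at -20.8. The same 2 libraries were at the ends of a difference in base composition. All tested genes were put in 4 equal classes by GC content, and those with a mean of 50 or more were then kept. The median deviation from the 12-library mean was taken in the GC-poorest class minus that in the GC-richest. This difference stood at 0.31 (log2) in replicate 3 at 26 months and at -0.24 in replicate 1 at 20 months. They were also at the ends of the same difference between the shortest and the longest of 4 classes of transcript length. It stood at -0.15 in replicate 3 at 26 months and at 0.090 in replicate 1 at 20 months. The pituitary hormone gene Gh exceeded 100 in 3 brains, at 695 and 548 in replicates 2 and 7 at 20 months and 244 in replicate 2 at 26 months. With 1 of the 12 libraries left out, the medians of 41 of the 42 gene lists described below moved by over 1.5 times and 13 changed sign. Several are given below without such a library.

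No gene passed an adjusted p of 0.05 between 26 and 20 months in the test across all genes (limma on log2(value + 1), Benjamini-Hochberg adjustment), which is 0 of 15566 or 0%, and the smallest adjusted p was 0.289. On the recovered reads edgeR's quasi-likelihood test called 2 genes, Serpina3n and Ptprc, and DESeq2 called these with Clec7a and AU020206, a long non-coding RNA, all with higher values at 26 months. At an unadjusted p under 0.05, limma had 304 genes higher (1.95% of those tested) and 300 lower (1.93%), edgeR had 338 and 251, and DESeq2 had 347 and 277. Chance alone puts about 1 in 20 genes there, both directions together, which is more than limma, edgeR or DESeq2 had. Among the 10941 genes with a mean of 50 or more in the higher group, the median standard error was 0.12 and the 95% interval of the difference lay within 1 log2 unit of 0 for 99.7%. The median size of a difference over all tested genes was 0.10. All 5 brains at 26 months were above all 7 at 20 months for 33 genes (0.212%), among them Ptprc, Plek, Nme5, Clec7a and Itgax. All 5 were below for 14 genes (0.0899%), among them Cox6a1, Kcnk1, Got2 and Rilpl2. Among 15566 genes some separate the groups in this way by chance, and groups that do not overlap are given below as a description.

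Of the 10 genes with the smallest unadjusted p among those with higher values at 26 months and a mean of 50 or more, 5 are known from microglia and other leukocytes: Ptprc, Plek, Mpeg1, Gpnmb and Cd9. Ptprc encodes CD45, the receptor phosphatase carried by all leukocytes including microglia, and lies on the minus strand of GRCm38 chr1:138062861-138175708 (ENSMUSG00000026395.16). Values of Ptprc were 186, 116, 103, 114 and 139 at 26 months and spanned 70.2 to 89.0 at 20 months (median 83.0). The groups did not overlap, and the highest value was that of replicate 1. The log2 difference was 0.68 (SE 0.15), with an adjusted p of 0.289 in limma, 0.0442 in edgeR and 0.00486 in DESeq2. Without replicate 1 the limma difference was 0.55. In these bulk samples more cells of a type and more RNA per cell cannot be told apart.

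Clec7a, the beta-glucan receptor dectin-1 and a marker of microglia around myelin debris and amyloid, lies at chr6:129461591-129472779 (ENSMUSG00000079293.11), where the GENCODE annotation classes it as a polymorphic pseudogene. At 26 months Clec7a stood at 72.0, 28.0, 18.5, 35.6 and 18.5, against 5.54 at the lowest, 10.2 at the median and 14.0 at the highest of the brains at 20 months. Every brain at 26 months was above every brain at 20 months, at read numbers that were low in both. The log2 difference was 1.65 (SE 0.50, adjusted p = 0.995), and DESeq2 gave an adjusted p of 0.0363 where edgeR gave 0.0746. Itgax, the integrin subunit CD11c of the same microglial state and of dendritic cells, also had its highest value in replicate 1. The 26-month brains had Itgax at 44.8, 21.9, 14.6, 26.7 and 17.7, where the 20-month brains had a median of 8.28 and a range of 4.05 to 12.6. Its groups were also apart, by 1.51 on the log2 scale (SE 0.54, adjusted p = 0.995). Without replicate 1 the differences were 1.35 for Clec7a and 1.28 for Itgax.

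**Figure D1:**
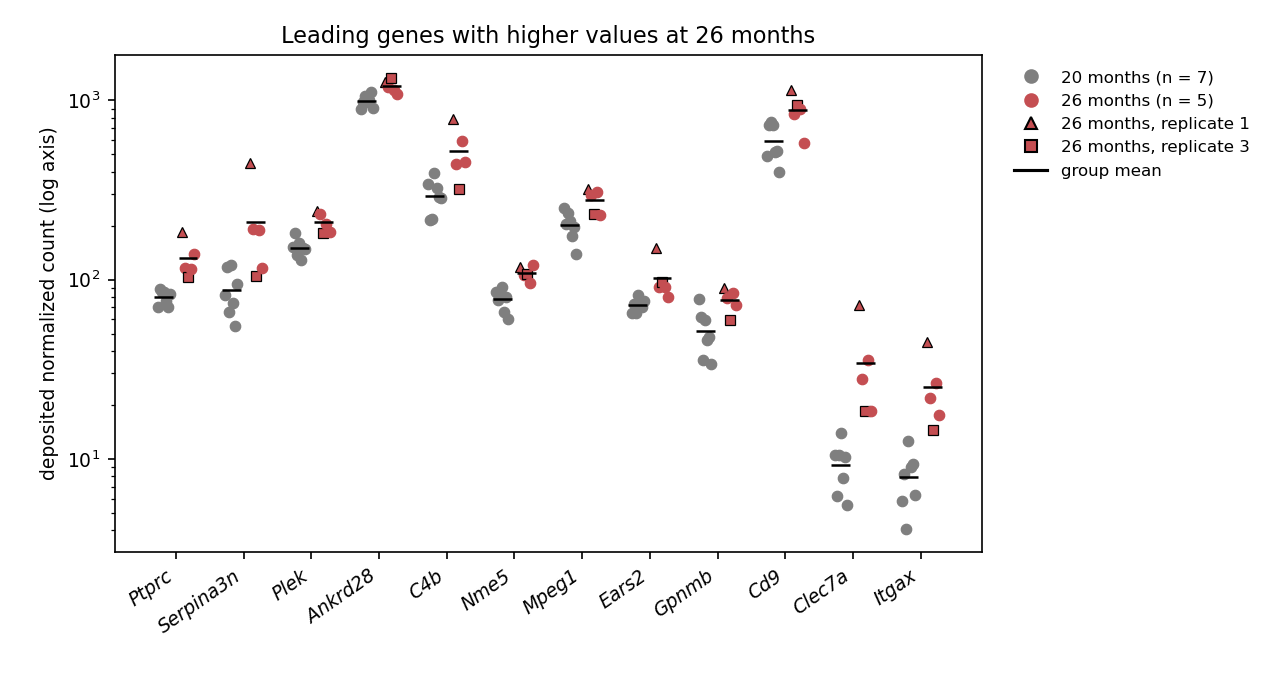
Normalised counts (log axis) of the 10 leading genes with higher values at 26 months and of Clec7a and Itgax, 1 point per brain, grey at 20 months (n = 7) and red at 26 months (n = 5), with the group mean as a bar. The triangle is replicate 1 and the square replicate 3 at 26 months: for Clec7a the red points (18.5 to 72.0) all lie above the grey ones (5.54 to 14.0), and the triangle is the highest red point in most columns.

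Gpnmb, a lysosomal glycoprotein of lipid-laden macrophages, and Cd9, a tetraspanin of microglia and oligodendrocytes, followed. For Gpnmb the values were 89.6, 79.2, 59.4, 83.8 and 72.4 at 26 months, beside a median of 48.0 (range 34.0 to 78.4) at 20 months. Replicates 1, 2 and 4 were above every brain at 20 months, and the difference was 0.60 (SE 0.18, adjusted p = 0.995). Cd9 read 1138, 844, 946, 890.0 and 578 in replicates 1 to 5 at 26 months, and 399 to 761 at 20 months with a median of 519. Replicate 5 lay within the 20-month range and the other 4 above it, with a difference of 0.58 (SE 0.18, adjusted p = 0.995). Plek, a substrate of protein kinase C in blood and microglial cells, was higher in every brain at 26 months, by a narrow gap. Values of Plek were 242, 233, 182, 205 and 185 at 26 months and spanned 128 to 181 at 20 months (median 151). The difference was 0.46 (SE 0.12, adjusted p = 0.995). Mpeg1, the pore-forming perforin-2 of macrophages, had 3 brains at 26 months above all at 20 months. At 26 months Mpeg1 stood at 322, 296, 232, 309.9 and 230.0, against 138 at the lowest, 205 at the median and 251 at the highest of the brains at 20 months. It differed by 0.47 (SE 0.14, adjusted p = 0.995).

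Over the whole list of activated microglia, 17 of 23 genes were measured. At an unadjusted p under 0.05 in limma, the threshold of every list count below, 6 were higher and 0 lower. Clec7a, tested only because of the 26-month brains, was among the 6, as was Itgax, also low at 20 months. Of the 17, 15 had a positive difference, and the median was 0.39, against 0.0013 over all tested genes. Of all tested genes 1.95% were higher and 1.93% lower at that threshold, and 7838 had a positive and 7728 a negative difference. Every list count below stands beside these shares, and a count of 1 is no result about a list. Lag3, an inhibitory receptor also found on microglia, was one of the 6. The 26-month brains had Lag3 at 88.0, 73.1, 52.6, 66.5 and 60.3, where the 20-month brains had a median of 49.5 and a range of 29.2 to 54.7. The 4 highest of the 12 brains were at 26 months, and the difference was 0.59 (SE 0.25). Lyz2, the macrophage lysozyme, differed by 0.39 (SE 0.32) with overlapping groups. The list's mean level was highest in replicate 1 at 26 months (7.61 on the log2 scale) and lowest of the 5 in replicate 3 (6.75), while the brains at 20 months lay between 6.46 and 6.95. Without replicate 1 the median was 0.17, and without replicate 3 it was 0.54 and 7 members passed the unadjusted threshold. The list of homeostatic microglia, the genes of the resting state, had a median of 0.060 over 12 measured members, with 1 higher and 0 lower. Without replicate 3 at 26 months its median was 0.17 and 3 were higher, and without replicate 4 the median was 0.028. Tgfbr1, a receptor for TGF-beta that keeps microglia in that state, was the 1, at 0.24 (SE 0.10). Cx3cr1, the fractalkine receptor, differed by 0.18 (SE 0.11).

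Markers of blood leukocytes were few or low in these brains. Of 18 T cell genes 4 were measured, with 0 passing at an unadjusted p under 0.05. The summed values of all 18, whether or not they passed the filter, were 95.5 to 181 at 20 months and 135 to 203 at 26 months. All 4 measured T cell genes had a positive difference, with a median of 0.23 (0.14 to 0.29 with 1 library left out). The receptor chain Trbc2 differed by 0.46 to 0.94 with 1 library left out. Of 16 B cell and plasma cell genes 3 were measured and 0 passed, with a median of -0.15 (-0.29 to -0.029 with 1 library left out). Of 14 neutrophil and monocyte genes 2 were measured and 0 passed. Of 10 perivascular macrophage genes 4 were measured and 0 passed, with a median of -0.17 (-0.32 to -0.090 with 1 library left out), and Mrc1, their mannose receptor, differed by -0.49 (SE 0.29). Of 10 erythroid genes 5 were measured, all 5 with a positive difference, and 1 passed. That was Hba-a1, an alpha-globin chain with a near-identical copy. For Hba-a1 the values were 24.0, 62.2, 5.84, 6.81 and 2.41 at 26 months, beside a median of 5.62 (range 0 to 10.4) at 20 months. Replicates 1 and 2 were above every brain at 20 months, the other 3 were within their range, and the difference was 1.31 (SE 0.64), with 0.72 without replicate 2. The mean log2 level of the erythroid list was 6.55 and 7.29 in replicates 1 and 2 at 26 months, 5.64 to 5.96 in the other 3, and 5.03 to 6.35 at 20 months. The part of blood cells in the differences of Ptprc and Itgax was not tested.

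The bases upstream of 4 of these genes are shown, for the 2 that edgeR called and for Clec7a and Itgax, the 2 activated microglia genes whose groups did not overlap. Each run is the 250 bases before the start of the gene in RefSeq on GRCm38.p6, read 5′ to 3′ on the gene's own strand, and capitals mark a motif match. The RefSeq start of Ptprc lies 403 bases downstream of the outer end of the gene in the GENCODE annotation, so its window is inside the gene as located above. For Serpina3n the RefSeq start is 21 bases outside the GENCODE gene, for Itgax 3 bases inside it, and for Clec7a both are the same base.
Serpina3n: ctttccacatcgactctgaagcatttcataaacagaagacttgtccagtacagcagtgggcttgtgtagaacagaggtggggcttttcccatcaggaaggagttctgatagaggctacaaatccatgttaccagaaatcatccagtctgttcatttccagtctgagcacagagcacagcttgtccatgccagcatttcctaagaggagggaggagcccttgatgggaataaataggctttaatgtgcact
Ptprc: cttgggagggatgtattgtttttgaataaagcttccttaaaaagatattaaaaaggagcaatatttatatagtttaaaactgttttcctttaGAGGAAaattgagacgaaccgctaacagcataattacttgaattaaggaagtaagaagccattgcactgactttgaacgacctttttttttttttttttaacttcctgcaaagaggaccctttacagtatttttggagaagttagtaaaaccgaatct
Clec7a: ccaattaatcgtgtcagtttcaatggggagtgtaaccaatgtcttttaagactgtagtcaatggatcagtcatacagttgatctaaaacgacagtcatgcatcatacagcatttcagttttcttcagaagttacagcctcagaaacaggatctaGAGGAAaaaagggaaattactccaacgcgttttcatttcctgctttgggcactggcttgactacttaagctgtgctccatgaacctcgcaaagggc
Itgax: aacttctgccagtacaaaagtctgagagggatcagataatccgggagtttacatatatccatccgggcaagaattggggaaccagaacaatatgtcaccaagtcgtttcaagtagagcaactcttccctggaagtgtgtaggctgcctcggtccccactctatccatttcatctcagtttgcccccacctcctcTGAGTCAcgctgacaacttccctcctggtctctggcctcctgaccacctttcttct
The letters GAGGAA, the core bound by the macrophage factor PU.1, were found 158 to 153 bases before the RefSeq start of Ptprc and 96 to 91 before that of Clec7a. Of 27018 RefSeq promoters of this length, 23.1% hold those letters on either strand. The AP-1 letters TGANTCA were found as TGAGTCA 56 to 50 bases before the start of Itgax, and 6.87% of promoters hold them. The STAT letters TTCNNNGAA (7.18% of promoters) and the interferon response letters, a pair of GAAA with 2 bases of any kind between them (3.04%) were not in these 4 windows, and the window of Serpina3n held none of the 4 motifs. The motifs were searched on both strands, no window held more than 1 match, and binding was not measured.

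Among astrocyte genes Serpina3n stood first. It encodes a secreted inhibitor of serine proteases that reactive astrocytes release, and lies at chr12:104406729-104414329 (ENSMUSG00000021091.8) in a cluster of close relatives. Serpina3n read 447, 193, 104, 189.5 and 117 in replicates 1 to 5 at 26 months, and 55.0 to 121 at 20 months with a median of 82.0. Replicates 1, 2 and 4 were above every brain at 20 months, and replicates 3 and 5 were within their range. The means were 209.9 ± 138 (SD, n = 5) at 26 months and 87.2 ± 25.1 (SD, n = 7) at 20 months, and the log2 difference was 1.10 (SE 0.24). The adjusted p was 0.289 in limma, 0.039 in edgeR and 0.00359 in DESeq2, and without replicate 1 the limma difference was 0.78.

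In the list of reactive astrocytes 12 of 16 genes were measured, of which 3 were higher and 0 lower at an unadjusted p under 0.05, with a median of 0.13. That median was 0.072 without replicate 1 at 26 months and 0.25 without replicate 3, where 2 passed. Besides Serpina3n these were Ggta1, a galactosyltransferase, and Cd44, the hyaluronan receptor. Values of Ggta1 were 120.0, 81.7, 64.3, 95.8 and 78.8 at 26 months and spanned 52.8 to 64.4 at 20 months (median 59.0). Replicate 3 was just under the top of the 20-month range and the other 4 were above it, with a difference of 0.57 (SE 0.18). Cd44 differed by 0.33 (SE 0.16). A2m, the plasma protease inhibitor alpha-2-macroglobulin, overlapped throughout. At 26 months A2m stood at 72.0, 52.4, 37.0, 60.2 and 56.3, against 22.2 at the lowest, 43.5 at the median and 87.0 at the highest of the brains at 20 months. Its difference was 0.30 (SE 0.29), where from 14 to 20 months it had been 0.94. Vim, the intermediate filament vimentin, differed by 0.19 (SE 0.14). Of the 15 measured genes of astrocyte identity 1 was higher and 1 lower. Aqp4, the water channel of astrocyte endfeet, was the higher one at 0.27 (SE 0.11), and Etnppl, an enzyme that breaks down phosphoethanolamine, the lower one.

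C4b, the fourth complement component, lies at chr17:34728380-34743882 (ENSMUSG00000073418.4), next to a near-identical copy, C4a, and how reads that fit both were counted is not given in the sources used here. The 26-month brains had C4b at 787, 441, 322, 594 and 454, where the 20-month brains had a median of 288 and a range of 214 to 393. 4 of the 5 brains at 26 months were above all 7 at 20 months, and replicate 3 was within their range. The difference was 0.78 (SE 0.22, adjusted p = 0.995), with means of 519.8 ± 178 (SD, n = 5) and 294 ± 64.7 (SD, n = 7). C3, the central component of the cascade, was the other complement gene with an unadjusted p under 0.05. For C3 the values were 54.4, 20.7, 8.77, 32.5 and 29.0 at 26 months, beside a median of 11.9 (range 7.02 to 24.8) at 20 months. Replicates 1, 4 and 5 were above every brain at 20 months, and it differed by 0.95 (SE 0.40) at few reads per library. The receptors C3ar1 and Itgam differed by 0.47 (SE 0.25) and 0.26 (SE 0.14). Of 18 complement genes 15 were measured, 2 were higher and 0 lower, and the median was 0.29. Without replicate 1 at 26 months the median was 0.17, and without replicate 3 it was 0.36 and 7 were higher.

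Genes of MHC class I presentation had positive differences for all 9 measured of 15, with a median of 0.35, and 1 of them passed the unadjusted threshold. Without replicate 5 at 26 months the median was 0.20, and without replicate 3 it was 0.44 and 2 passed. The 1 was H2-K1, a classical class I heavy chain. H2-K1 read 192, 152, 129.5, 162 and 178 in replicates 1 to 5 at 26 months, and 98.4 to 143 at 20 months with a median of 127. 4 of the 5 brains at 26 months were above all at 20 months, and the difference was 0.41 (SE 0.16). H2-D1 and H2-Q4, class I genes of the same near-identical family, differed by 0.25 (SE 0.16) and 0.41 (SE 0.32), and Nlrc5, the activator of class I transcription, by 0.60 (SE 0.32). Interferon-stimulated genes had a median of 0.24 over 19 measured of 22, 16 of them positive, with 0 higher and 0 lower at an unadjusted p under 0.05, and 2 higher without replicate 3. The nearest was Ifit2, which blocks translation of viral RNA, at 0.24 (SE 0.12). Oas1a, a sensor of double-stranded RNA, differed by 0.68 (SE 0.49). MHC class II genes, which mark antigen-presenting cells, had a median of -0.0080 over 6 measured members, with 0 passing, and of 0.20 without replicate 3. Of 17 inflammatory cytokine and NF-kB genes 7 were measured, and Tlr2, a receptor for bacterial lipoproteins, was the 1 with an unadjusted p under 0.05. Values of Tlr2 were 36.8, 14.6, 13.6, 12.6 and 9.65 at 26 months and spanned 2.34 to 12.6 at 20 months (median 8.70). Replicates 1, 2 and 3 were above every brain at 20 months, and it differed by 0.99 (SE 0.39). Among 16 lysosome and autophagy genes 2 were higher and 0 lower, with 10 positive and a median of 0.043. They were the cathepsin Ctss at 0.40 (SE 0.17) and the asparaginyl protease Lgmn at 0.29 (SE 0.14). Without replicate 1 at 26 months the median was -0.022, and without replicate 3 it was 0.098 and 1 was higher.

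Genes of oligodendrocytes, which make myelin, had positive differences of smaller size. Of the 15 measured myelinating oligodendrocyte genes 13 had a positive difference, 4 were higher and 0 lower at an unadjusted p under 0.05, and the median was 0.13. Ugt8a, which makes the galactolipids of myelin, led them. At 26 months Ugt8a stood at 1013, 999.7, 1069, 958 and 728, against 562 at the lowest, 799 at the median and 949.9 at the highest of the brains at 20 months. Replicate 5 was within the 20-month range and the other 4 were above it, with a difference of 0.35 (SE 0.12). Cldn11, the tight junction protein of myelin, differed by 0.27 (SE 0.10), and the myelin membrane protein Opalin by 0.32 (SE 0.16). Bcas1, a marker of oligodendrocytes that are starting to myelinate, was the 1 of 12 precursor and newly formed oligodendrocyte genes that passed, at 0.32 (SE 0.12). Without replicate 3 at 26 months and replicate 1 at 20 months 0 of the 15 myelin genes passed, with a median of 0.12, without replicate 5 at 26 months the median was 0.21, and without the 3 libraries with Gh above 100 1 passed. Apod, an apolipoprotein of oligodendrocytes and astrocytes, differed by 0.13 (SE 0.14). Cholesterol synthesis, which myelin depends on, had a median of 0.095 over 17 genes with 1 higher, Dhcr7, at 0.27 (SE 0.13).

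Of the 10 genes with the smallest unadjusted p among those with lower values, 4 encode mitochondrial proteins (Cox6a1, Uqcrq, Mdh2 and Got2), and Rps14 encodes a ribosomal protein. Cox6a1, a subunit of cytochrome c oxidase, lies at chr5:115345642-115348981 (ENSMUSG00000041697.8). The 26-month brains had Cox6a1 at 406, 421, 260.0, 464 and 462, where the 20-month brains had a median of 559 and a range of 479 to 590.1. The groups did not overlap, and replicate 3 was far below the rest. The difference was -0.44 (SE 0.12, adjusted p = 0.995), and -0.29 without replicate 3. Uqcrq, a subunit of the cytochrome bc1 complex, had the same outlying library. For Uqcrq the values were 266, 293, 168, 265 and 291 at 26 months, beside a median of 322 (range 282 to 421) at 20 months. Replicates 1, 3 and 4 were below every brain at 20 months. It differed by -0.45 (SE 0.14, adjusted p = 0.995), and by -0.31 without replicate 3. Mdh2 and Got2, the mitochondrial enzymes of the malate-aspartate shuttle, came next. Mdh2 read 514, 601, 361, 617 and 595 in replicates 1 to 5 at 26 months, and 572 to 772 at 20 months with a median of 667. Replicates 1 and 3 were below every brain at 20 months, and the difference was -0.34 (SE 0.11, adjusted p = 0.995). Values of Got2 were 338, 327, 268.8, 339 and 306 at 26 months and spanned 346 to 446 at 20 months (median 382). Here all 5 were below all 7, with a difference of -0.33 (SE 0.11, adjusted p = 0.995).

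**Figure D2:**
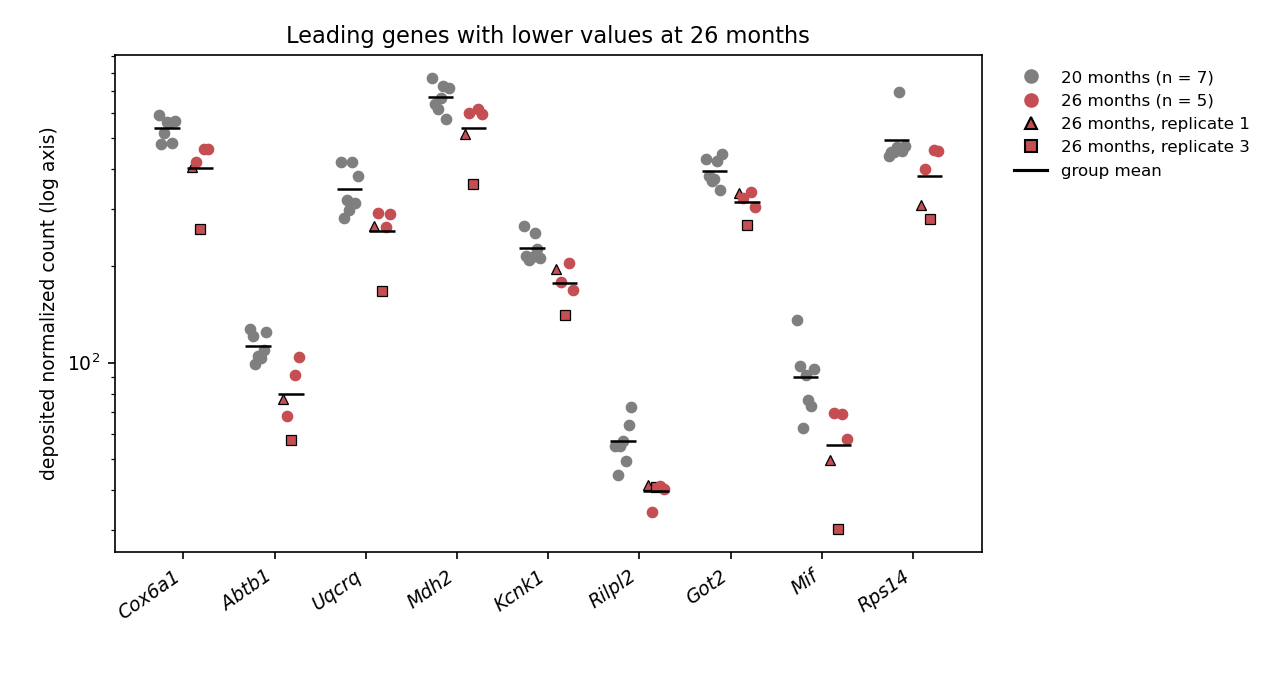
Normalised counts (log axis) of 9 of the 10 leading genes with lower values at 26 months, drawn as in the plot of genes with higher values. The square, replicate 3 at 26 months, is the lowest red point for 8 of these 9 genes, while for Cox6a1, Kcnk1, Rilpl2 and Got2 all 5 red points lie below all 7 grey ones.

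Of the 22 respiratory chain genes encoded in the nucleus, 21 had a negative difference, 7 were lower and 0 higher at an unadjusted p under 0.05, and the median was -0.19. Cox7c, Ndufa4, Cox4i1 and Sdhb, subunits of complexes I, II and IV or associated with them, differed by -0.42 (SE 0.18), -0.25 (SE 0.11), -0.33 (SE 0.15) and -0.30 (SE 0.14). Ribosomal protein genes had a negative difference in 22 of 22, with 6 lower and 0 higher and a median of -0.20. Rps14 of the small subunit led them. At 26 months Rps14 stood at 309, 401, 279.5, 461 and 457, against 441 at the lowest, 458 at the median and 697 at the highest of the brains at 20 months. Replicates 1, 2 and 3 were below every brain at 20 months, where replicate 5 was far above the rest. The difference was -0.38 (SE 0.13, adjusted p = 0.995). Rps19 differed by -0.39 (SE 0.14), Rpl19 by -0.33 (SE 0.15) and Rplp1 by -0.32 (SE 0.14), and ribosomal protein genes share reads with their many pseudogenes.

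Replicate 3 at 26 months was the lowest of all libraries in both lists. It had the lowest mean level of the 12 libraries for the respiratory chain, 8.73 against 9.03 to 9.15 in the other 26-month brains, and for ribosomal proteins, 7.73 against 8.08 to 8.33. Without it 0 of 22 respiratory chain genes and 2 of 22 ribosomal genes were lower at an unadjusted p under 0.05, and the medians were -0.12 and -0.11. Genes lower at an unadjusted p under 0.05 then numbered 133 in place of 300. Across all genes the median difference ran from 0.042 in the GC-poorest class to -0.060 in the GC-richest, with 132 of the 300 lower genes in the latter, and from 0.020 to -0.017 without replicate 3. By transcript length the median difference ran from -0.031 in the shortest class to 0.014 in the longest, with 126 and 36 of the 300 lower genes. Without replicate 3 these medians were -0.012 and 0.0016. The part of base composition or of transcript length in these differences was not tested.

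**Figure D3:**
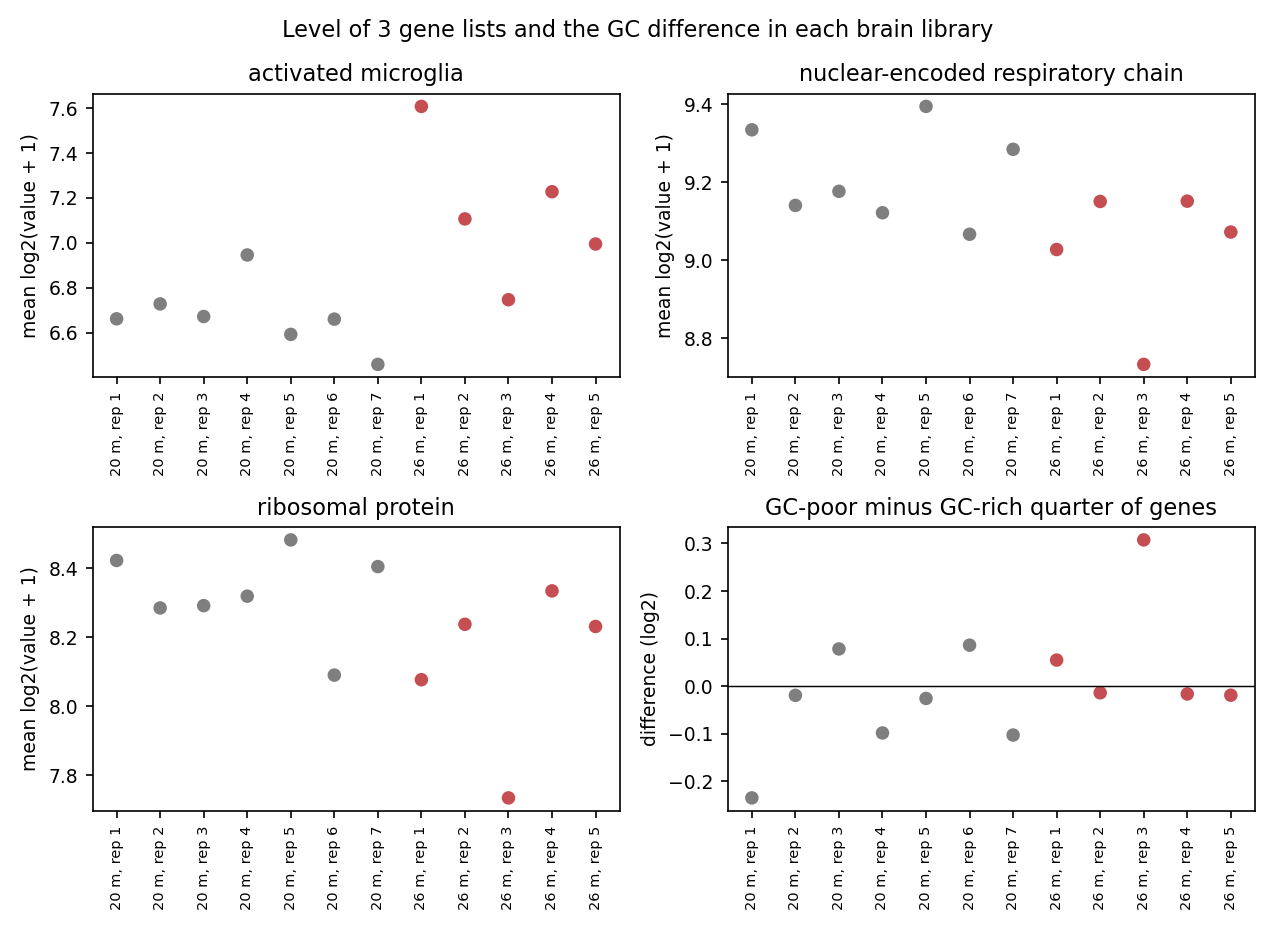
Mean log2(value + 1) of the measured members of 3 gene lists and the difference between the GC-poorest and GC-richest of 4 equal classes of genes, 1 point per brain library, grey at 20 and red at 26 months. Replicate 3 at 26 months is the lowest point in the respiratory chain and ribosomal panels and the highest in the GC panel (0.31), and replicate 1 at 26 months is the highest for activated microglia (7.61).

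The remaining leading genes with lower values were of other kinds. Kcnk1, a potassium leak channel of neurons and astrocytes, was lower in all 5 brains. The 26-month brains had Kcnk1 at 195, 178, 140.2, 204 and 169, where the 20-month brains had a median of 215 and a range of 209 to 267. It differed by -0.37 (SE 0.12, adjusted p = 0.995). Rilpl2, a binding partner of Rab proteins at the cilium, was also lower in all 5. For Rilpl2 the values were 41.6, 34.1, 40.9, 41.4 and 40.2 at 26 months, beside a median of 55.1 (range 44.5 to 72.7) at 20 months. The difference was -0.50 (SE 0.16, adjusted p = 0.995). Mif, the macrophage migration inhibitory factor, differed by -0.72 (SE 0.24, adjusted p = 0.995), and by -0.52 without replicate 3. Among genes with higher values, Nme5, a protein of the axoneme of cilia and flagella, separated both ages. Nme5 read 118, 106, 107, 95.8 and 121 in replicates 1 to 5 at 26 months, and 60.1 to 90.9 at 20 months with a median of 80.2. It differed by 0.49 (SE 0.14, adjusted p = 0.995). Ankrd28, a regulatory subunit of protein phosphatase 6 complexes, had a difference of 0.28 (SE 0.077, adjusted p = 0.995).

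Neuronal lists and most regional lists had medians below 0, with few members past the unadjusted threshold. Pan-neuronal genes had a median of -0.094 over 13 measured, with 0 higher and 1 lower, the ubiquitin hydrolase Uchl1, at -0.29 (SE 0.13). Without replicate 3 at 26 months 0 were lower and the median was -0.032. Genes of the glutamatergic synapse (median -0.016, 15 genes) and of GABAergic neurons (median -0.055, 14 genes) had 0 past that threshold in either direction. Differences were negative in 10 of 13 pan-neuronal, 9 of 15 glutamatergic and 11 of 14 GABAergic genes. Immediate early genes, which neurons switch on with activity, had a negative difference in 13 of 16, with 0 higher and 2 lower. Without replicate 3 at 26 months 0 were lower, and without the 3 libraries with Gh above 100 5 were lower, with medians of -0.11 and -0.29 in place of -0.16. Replicate 5 at 20 months had the highest list level of the 12 (8.59), and without it the median was -0.070. Without replicate 1 at 26 months it was -0.35. Arc, which acts in synaptic plasticity, was the first. Values of Arc were 611, 216, 172, 339.8 and 256 at 26 months and spanned 269.6 to 1013 at 20 months (median 448). 3 of the 5 brains at 26 months were below all at 20 months, and replicate 1 was above the 20-month median. The difference was -0.72 (SE 0.28, adjusted p = 0.995), with -0.99 without replicate 1. Junb differed by -0.45 (SE 0.21) and Fos by -0.15 (SE 0.24). Of the regional lists, hippocampus and cortex had 2 lower of 14, Neurod6 at -0.27 (SE 0.13) and Fezf2 at -0.46 (SE 0.23), both transcription factors of cortical projection neurons. The striatum list had 1 lower of 13, Ppp1r1b (-0.40 to -0.23 with 1 library left out). The thalamus and habenula list had 1 lower of 12, Prkcd (-0.74 to -0.37 likewise). In that order of lists the medians were -0.14, -0.097 and -0.11, with 8 of 14, 11 of 13 and 10 of 12 negative. With 1 library left out they ran from -0.18 to -0.064, -0.14 to -0.022 and -0.18 to -0.042. Without replicate 3 at 26 months 1, 0 and 0 members were lower. Cerebellum and hindbrain (10 measured) and olfactory bulb (11 measured) had 0 past the threshold in either direction. Their medians were 0.11 and -0.070, with members from -0.13 to 1.22 and from -0.81 to 0.46. Without replicate 1 at 26 months the olfactory bulb median was 0.12, and without replicate 3 cerebellum and hindbrain had 1 higher. The share of each region in a sample was not measured.

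Vessels and choroid plexus had no gene past the unadjusted threshold. Endothelial genes had a median of -0.049 over 16, choroid plexus and ependyma genes -0.22 over 13, and pericyte and smooth muscle genes -0.049 over 10. Without replicate 3 at 26 months the pericyte and smooth muscle median was 0.091. Without replicate 4 at 20 months the choroid plexus median was -0.025, and without replicate 7 at 20 months the endothelial median was -0.012. Vwf, the von Willebrand factor of endothelium, overlapped throughout. At 26 months Vwf stood at 146, 102, 71.1, 97.9 and 189, against 70.4 at the lowest, 154 at the median and 212 at the highest of the brains at 20 months. It differed by -0.26 (SE 0.23). In the step before, the medians of the first 2 lists had been 0.17 and 0.41, with 4 and 3 genes higher. Of 15 extracellular matrix and fibroblast genes 1 was lower, the collagen Col1a2, at -0.35 (SE 0.16).

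**Figure D4:**
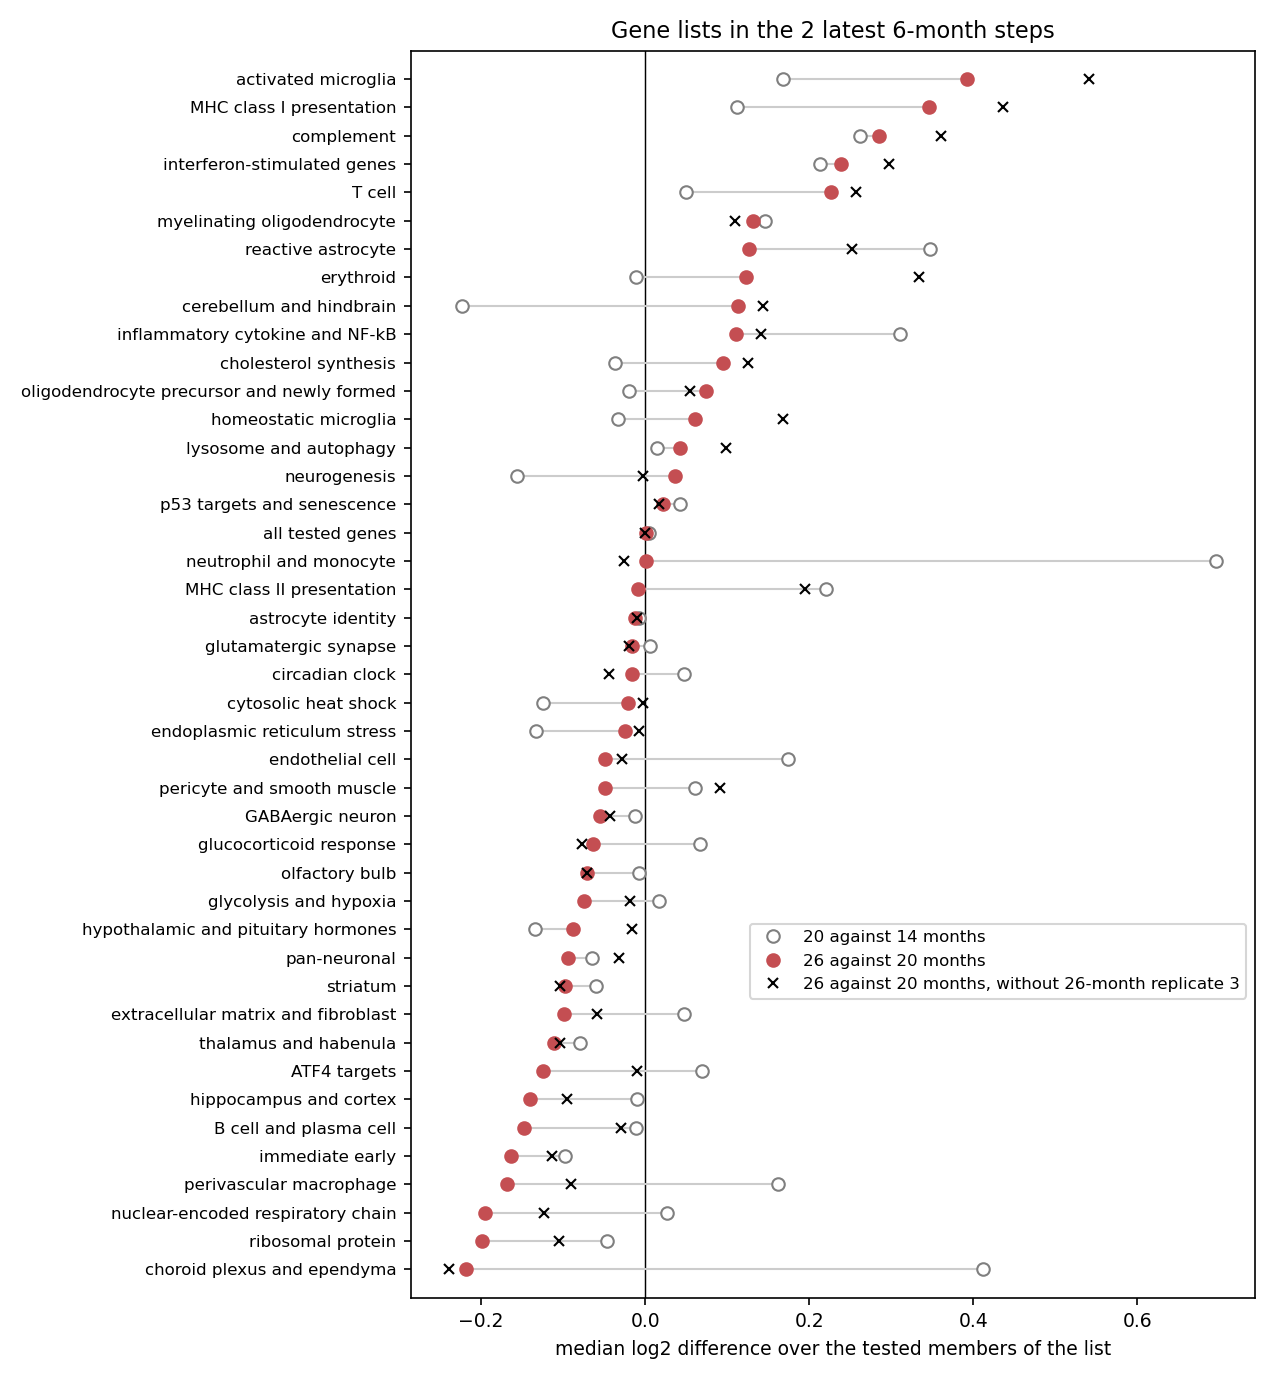
Median log2 difference over the measured members of each of 42 gene lists and of all tested genes, for 26 against 20 months (red), for 20 against 14 months (open) and for 26 against 20 months without replicate 3 (cross); both steps share the 20-month brains. Activated microglia stand at the top of the latest step (0.39) and choroid plexus and ependyma at the bottom (-0.22, or -0.025 without replicate 4 at 20 months), and leaving out replicate 3 brings the ribosomal and respiratory chain lists nearer to 0.

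Stress and growth programmes gave few differences. The lists of cytosolic heat shock (14 genes), endoplasmic reticulum stress (16), p53 targets and senescence (11), glucocorticoid response (12) and neurogenesis (11) had 0 members past the unadjusted threshold in either direction, with medians between -0.063 and 0.036. Glucocorticoid response had 1 lower without replicate 3 at 26 months, and 2 lower without both GC extremes. ATF4 targets had 1 higher of 13, with 10 negative. Their median was -0.12, and -0.010 without replicate 3 at 26 months. Eda2r, a p53 target often listed among age-related transcripts, differed by 0.39 (SE 0.30) at few reads. Glycolysis and hypoxia genes had 1 lower of 12, the aldolase Aldoa, at -0.28 (SE 0.14), and circadian clock genes 1 lower of 15, Dbp, at -0.37 (SE 0.17). Nrep and Dio2, which other ages of these data single out, differed by -0.027 (SE 0.12) and 0.10 (SE 0.091), with all 5 brains at 26 months within the 20-month range.

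The change of pace was tested as the difference between the latest step and the equally long step before it. No gene passed an adjusted p of 0.05 in limma, edgeR or DESeq2, and the smallest adjusted p in limma was 0.664. At an unadjusted p under 0.05 there were 465 of 15566 genes in limma, 488 in edgeR and 514 in DESeq2. Each is fewer than the about 1 in 20 that chance alone puts there. Both steps share the 20-month brains, so a group that happens to lie high at 20 months gives opposite signs in the 2 steps. Etnppl led the genes whose latest step was lower than the earlier one, at -0.96 (SE 0.22, adjusted p = 0.664). The 26-month brains had Etnppl at 517, 472, 399, 403 and 464, where the 20-month brains had a median of 556 and a range of 433 to 881. Replicates 3 and 4 were below every brain at 20 months. Its difference was -0.39 from 20 to 26 months and 0.57 from 14 to 20 months, with a mean of 401 ± 71.9 (SD, n = 9) at 14 months. Med8, a subunit of Mediator, Abtb1, the Wnt receptor Fzd4 and the GTPase regulator Arhgap27 followed, with changes of -0.70 (SE 0.21), -0.85 (SE 0.26), -0.89 (SE 0.29) and -0.89 (SE 0.29). Abtb1 was also among the 10 leading lower genes. For Abtb1 the values were 76.8, 68.3, 57.5, 91.6 and 104 at 26 months, beside a median of 109 (range 98.8 to 128) at 20 months. All but replicate 5 were below every brain at 20 months. The genes whose latest step was higher were Ears2, the mitochondrial glutamyl-tRNA synthetase, at 0.83 (SE 0.22, adjusted p = 1), the adhesion molecule Clmp at 0.61 (SE 0.18), Mtss1 at 0.44 (SE 0.13), the GABA receptor subunit Gabra2 at 0.55 (SE 0.17) and Tril, a partner of Toll-like receptors, at 0.56 (SE 0.18). Ears2 read 150.4, 91.4, 97.4, 90.6 and 79.6 in replicates 1 to 5 at 26 months, and 65.6 to 82.1 at 20 months with a median of 73.1. All but replicate 5 were above every brain at 20 months. Without replicate 1 the step of Ears2 was 0.31 in place of 0.46.

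In the step from 14 to 20 months limma called 1 gene, C4b, and 2.42% of genes were higher and 1.74% lower at an unadjusted p under 0.05. Over both steps together, from 14 to 26 months, limma called 26 genes (0.167%), all with higher values at 26 months, edgeR 40 and DESeq2 58. The unadjusted p was under 0.05 for 18 of them in the earlier step and for 19 in the latest step, with medians of 0.39 and 0.44, and for 0 of them in the test of the change of pace. Since these genes were called on the sum of both steps and the steps share the 20-month brains, the 2 medians are a description. Replicate 1 at 26 months, the library with the fewest reads of the 12, held the highest 26-month value in 22 of the 26 genes, and replicate 3 the lowest in 13. Without replicate 1 the number called was 7, without replicate 4 or replicate 5 it was 17, and without the 3 libraries with Gh above 100 it was 12.

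The 2 steps of 11 of these genes stand side by side as follows. C4b differed by 1.15 (SE 0.19) from 14 to 20 months and by 0.78 from 20 to 26 months. Lyz2 differed by 1.01 and 0.39, A2m by 0.94 and 0.30, and Apod by 0.49 and 0.13, in that order of steps. Plek had 0.073 and 0.46, Ankrd28 0.071 and 0.28, Serpina3n 0.34 and 1.10, and Ptprc 0.32 and 0.68. Clec7a had 1.15 and 1.65, Itgax 1.17 and 1.51, and Gpnmb 0.41 and 0.60. The adjusted p of the change of pace was 1 for Plek and 1 for Serpina3n, the 2 of these genes with the smallest unadjusted p.

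Seen over all ages, Serpina3n had means of 51.7, 50.1, 56.5, 68.5, 87.2 and 209.9 at 3, 5, 8, 14, 20 and 26 months. Its SD was 138 at 26 months against 25.1 at 20 months, the widest of the 6 ages. Ptprc had means of 55.7, 54.9, 62.5, 64.1, 80.1 and 132. Clec7a had means of 2.53, 2.04, 3.38, 4.73, 9.28 and 34.5. For these 3 genes the mean at 26 months was the highest of the 6 ages, and for Etnppl and Abtb1 the highest was at 20 months, at 604 and 113.

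**Figure D5:**
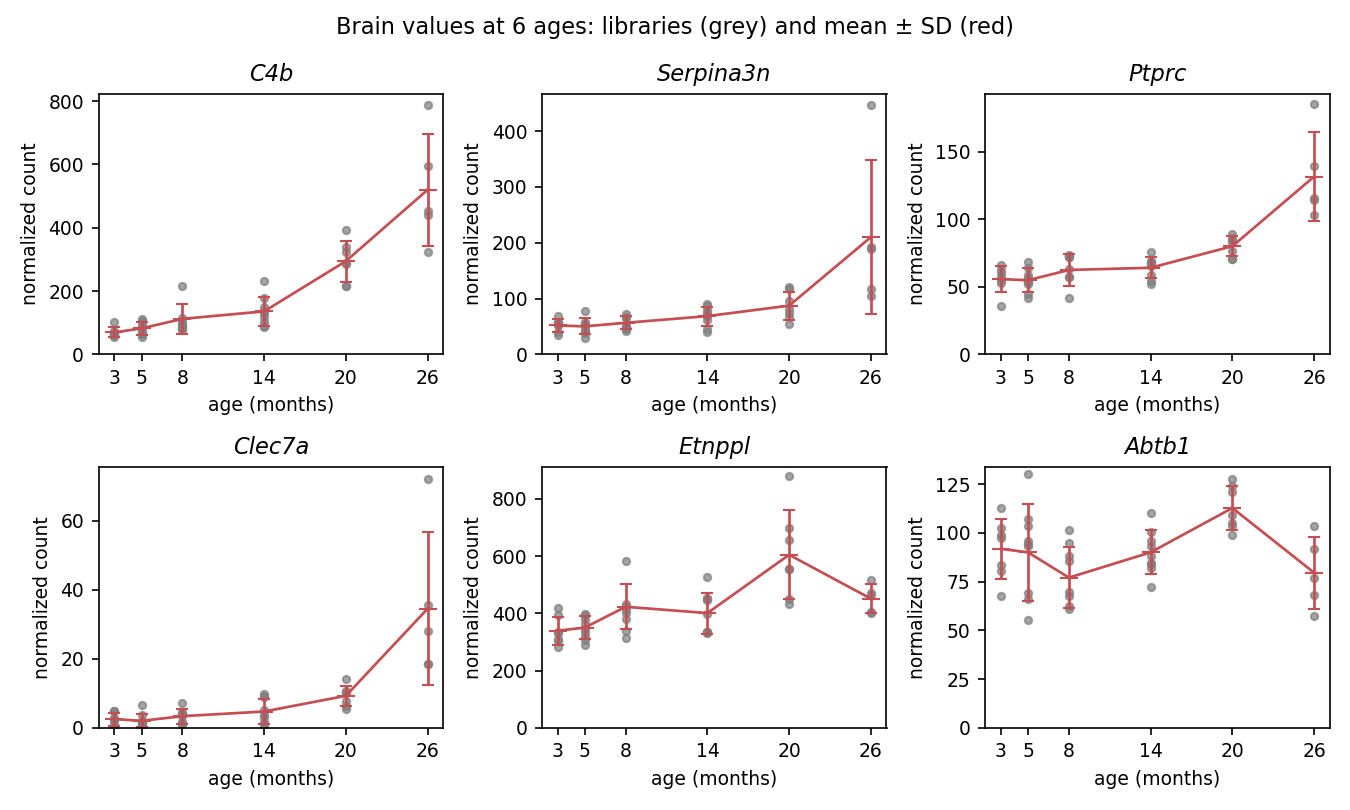
Normalised counts of 6 genes against age in months, with each of the 45 brain libraries as a grey point and the group mean ± SD in red, where the pairs of libraries averaged at 5 and 8 months count once. C4b, Serpina3n, Ptprc and Clec7a have their highest mean at 26 months with the widest spread there, and Etnppl and Abtb1 have theirs at 20 months.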

How the data were processed

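Total RNA of flash-frozen brain was sequenced, per the labels' protocols, from Illumina TruSeq libraries. GRCm38 (mm10) is the build in the submitters' processing notes, and the tools there include HISAT2 2.1.0, R 3.5.1, DESeq2, bcl2fastq 2.20, SAMtools and cutadapt. The read counter, its strand setting and the annotation are not given in the sources used here. The deposited values are a normalised signal, called normalised counts per the labels. Within each library they are whole multiples of 1 step, the worth of 1 read, and whole reads were recovered for 100% of brain values (to 0.01 of a read).

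The test was limma 3.58.1 (R 4.3.3, mean-variance trend) on log2(deposited value + 1), 1 mean per age for 43 samples of 6 ages, after averaging 2 pairs of brains (at 5 and 8 months) that differed by less than read sampling noise and were counted as 1 sample each. Fold changes are on that scale, which understates changes of low genes. Differences are 26 minus 20 months, and SE is the moderated standard error. Benjamini-Hochberg adjustment ran over 15566 genes, and genes were called at an adjusted p under 0.05. The recovered reads went into edgeR 4.0.16 and DESeq2 1.42.0 as alternatives. Fits were tested on simulated data. P-values set a difference against the spread between animals of the same age, pooled over all 6 ages. A spread that is wider at 26 months, as for Serpina3n, may be understated by it.

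Named genes were the 10 smallest unadjusted p in each direction with a mean of 50 or more (predicted genes, variable segments, pseudogenes and sex-linked genes left out), up to 4 leading members of each of 42 lists, genes known from other ages, and 5 per direction for the change of pace. The genes, lists and libraries were chosen with earlier results of these data known. The contrast of 26 against 14 months, and the fits without Gh-high libraries or without both GC extremes, were added after the data were seen. Lengths and GC came from GENCODE transcripts of GRCm38 (99.7% of genes), promoters from RefSeq. A few items are not reported here. Figures used matplotlib 3.10.9.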

Additional observations from a re-analysis of the deposited data

Results flagged for a closer look

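Among the named genes and gene lists, 1 library lay far from the others of its age in 15 cases of 284 groups looked at. Chance puts about 1 in 20 groups there, and genes and lists of 1 library are not independent. Replicate 3 at 26 months was that library in 8 of them. It was the lowest of the 5 for Cox4i1 (496, next 743), Cox6a1 (260.0, next 406), Uqcrq (168, next 265) and Fzd4 (57.5, next 86.9), and the highest for Gabra2 (1307, next 1069). It also had the lowest mean log2 level for the ATF4 targets list (6.34), the endothelial cell list (6.67) and the pericyte and smooth muscle list (5.17).

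In the other brains at 26 months, Rilpl2 was lowest in replicate 2 (34.1) and Ugt8a in replicate 5 (728), and the olfactory bulb list was lowest in replicate 1 (4.71). At 20 months, Rps14 was highest in replicate 5 (697), whose MHC class II list (3.72) and striatum list (7.57) were the lowest. Opalin was lowest in replicate 7 at 20 months (82.2).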

How the results depend on the processing

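All 20 leading genes kept their sign in every setting. They were picked by their p in these same libraries, so a kept sign was all but fixed beforehand and is a description. Between 26 and 20 months the number called was 0 with pseudocounts of 0.5 and 5, a filter of 50, TMM scaling, 45 separate libraries, 20 and 26 months alone, each library left out in turn and both added exclusions. It was 1 with no filter (Obox4-ps2), 2 in edgeR, 4 in DESeq2 and 7 with sample quality weights (Serpina3n, Ptprc, Mpeg1, Trim12c, C4b, Gm10863 and AU020206); the cause was not tested. Change of pace called 1 gene with no filter. From 14 to 20 months the count of 1 was 2 with no filter, 2 in edgeR, 3 in DESeq2, 7 with quality weights and 1 to 2 with a library left out. From 14 to 26 months the count of 26 was 40, 58 and 64 in edgeR, DESeq2 and with quality weights, 7 to 27 with a library left out (lowest without replicate 1 at 26 months) and 12 without the Gh-high libraries. Genes higher at an unadjusted p under 0.05 numbered 304, and 757 with no filter, 479 with quality weights, 459 with both ages alone, 186 without both GC extremes and 202 to 371 with a library left out. Those lower numbered 300, and 544 with no filter, 472 with both ages alone, 134 without both GC extremes and 133 to 425 with a library left out, lowest without replicate 3 at 26 months. With a library left out, log2 differences ran across 0 for Apod (-0.011 without replicate 1 at 26 months, up to 0.21), Lgals3bp (-0.0049 likewise, up to 0.38), Fos (-0.33 to 0.057, positive without replicate 5 at either age) and Nrep (-0.080 to 0.028, positive without replicate 1 or 5 at 26 months or 3 at 20 months). Acer2 was 0.058 without the Gh-high libraries and -0.16 with all. No paired analysis was possible because the titles carry animal codes and no replicate numbers that 2 ages share. The medians of 13 of 42 lists changed sign with 1 library left out. Depth limits low genes such as Clec7a and Itgax, and 5 against 7 animals limits all.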

Other observations

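The spleens of the same mice, matched by the animal code in the titles, were not part of the comparison. Mki67, a gene of dividing cells, stood there at 28797, 13770.3, 1082, 2240.1 and 17531 in replicates 1 to 5 at 26 months, and between 1001 and 24193 at 20 months. Ptprc, which is carried by most spleen cells, stood at 6944, 8979, 9993, 13638 and 10873 in replicates 1 to 5 at 26 months, and between 5204 and 10773 at 20 months. Serpina3n stood at 57.1, 177, 91.8, 89.1 and 171 in replicates 1 to 5 at 26 months, and between 33.8 and 267 at 20 months. The mouse with the highest brain value of Serpina3n and Ptprc, replicate 1 at 26 months, had the highest spleen value of Mki67 of these 12 mice and the lowest spleen value of Serpina3n of the 26-month mice. These values are given without a test.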
